A study of Mus musculus with 6 samples.

Results

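Proximal tubule transport and identity genes were compared between injured kidneys of *Ptpn6*+/mev and wild-type mice. The 37 genes were chosen by name, by what their proteins are known to do, with earlier results of these data known. All 37 were found by symbol among the 21367 genes measured. They comprise 3 sugar carriers, 10 amino acid carriers, 8 anion carriers, 4 genes of receptor-mediated endocytosis and 12 other genes by which proximal tubule cells are recognised. Of these, 36 passed edgeR's filter on low counts together with 13036 genes in all. The exception was *Slc7a12*.

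The proximal tubule takes back most of what the glomerulus filters. Carriers in its apical brush border move sugars, amino acids, phosphate, sulfate and dicarboxylates into the cell, mostly together with sodium, and basolateral carriers pass them on to the blood. A receptor complex of megalin and cubilin retrieves filtered proteins, and peptidases on the brush border split peptides in the lumen. The tubule is divided along its length into an early convoluted and a late straight part, which differ in their carriers, and the late part in the outer medulla is known to be the more easily damaged by ischemia.

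The *Ptpn6*+/mev mice were heterozygous for viable motheaten, a splice site mutation of *Ptpn6*, which encodes the tyrosine phosphatase SHP-1. The labels also name this genotype a knockdown of SHP-1. The allele is present in every cell of the animal, so it is not limited to the tubule. The controls were wild-type littermates of the same C57BL/6 background. All 6 mice, 3 in each group, were 7 weeks old, and in all of them the right kidney had been removed and the pedicle of the left kidney clamped for 34 min. The left kidney was taken after 24 h of reperfusion, and 1 mRNA library was made per mouse. Kidneys without injury were not analysed here, so the values compare genotypes after injury and not injury with its absence.

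Total counts lay between 10271590 and 12361745 per library. Values per group stand in the order of replicates 1, 2 and 3. *Ptpn6* itself had 11.85, 14.7 and 13.6 FPKM (fragments scaled to transcript length and library size) in the *Ptpn6*+/mev mice, against 17.5, 10.9 and 15.4 in the wild-type mice. The groups overlapped through wild-type replicate 2 alone, since wild-type replicates 1 and 3 lay above every *Ptpn6*+/mev value. The log2 fold change was -0.19 (adjusted p = 0.715, edgeR's quasi-likelihood test), and a splice site allele need not change the number of reads. The 4 Y-linked genes *Ddx3y*, *Uty*, *Kdm5d* and *Eif2s3y* were above 0 in all 6 libraries. Wild-type replicate 2 stood apart from the rest. Its 8 endothelial marker genes summed to 127 FPKM, against 287 to 333 in the other 5 libraries, and its 8 fibroblast markers to 97.7, against 309 to 387. It also held the highest value of 9 and the lowest value of 9 of the 36 tested genes. Counts of genes called, and those fold changes of the named genes that moved by more than 1.5 times, are therefore given also without it. For *Ptpn6* the fold change without that library is not given.

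The genes spanned a wide range of levels. *Kap*, the kidney androgen-regulated protein, was highest, with 2644, 2882 and 2190 FPKM in the *Ptpn6*+/mev mice and 2449, 10201 and 1520 in the wild-type mice. At the other end, *Slc7a12*, an amino acid carrier of the late straight part, had 1 to 3 counts per library, which is at or under the floor of 3 counts, so no fold change is given for it. The remaining genes had means over the 6 libraries between 2.57 FPKM, that of *Slc5a8*, and 393 FPKM, that of *Slc6a18*. *Slc6a18* carries neutral amino acids such as glycine across the apical membrane of the late part.

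**Figure D1:**
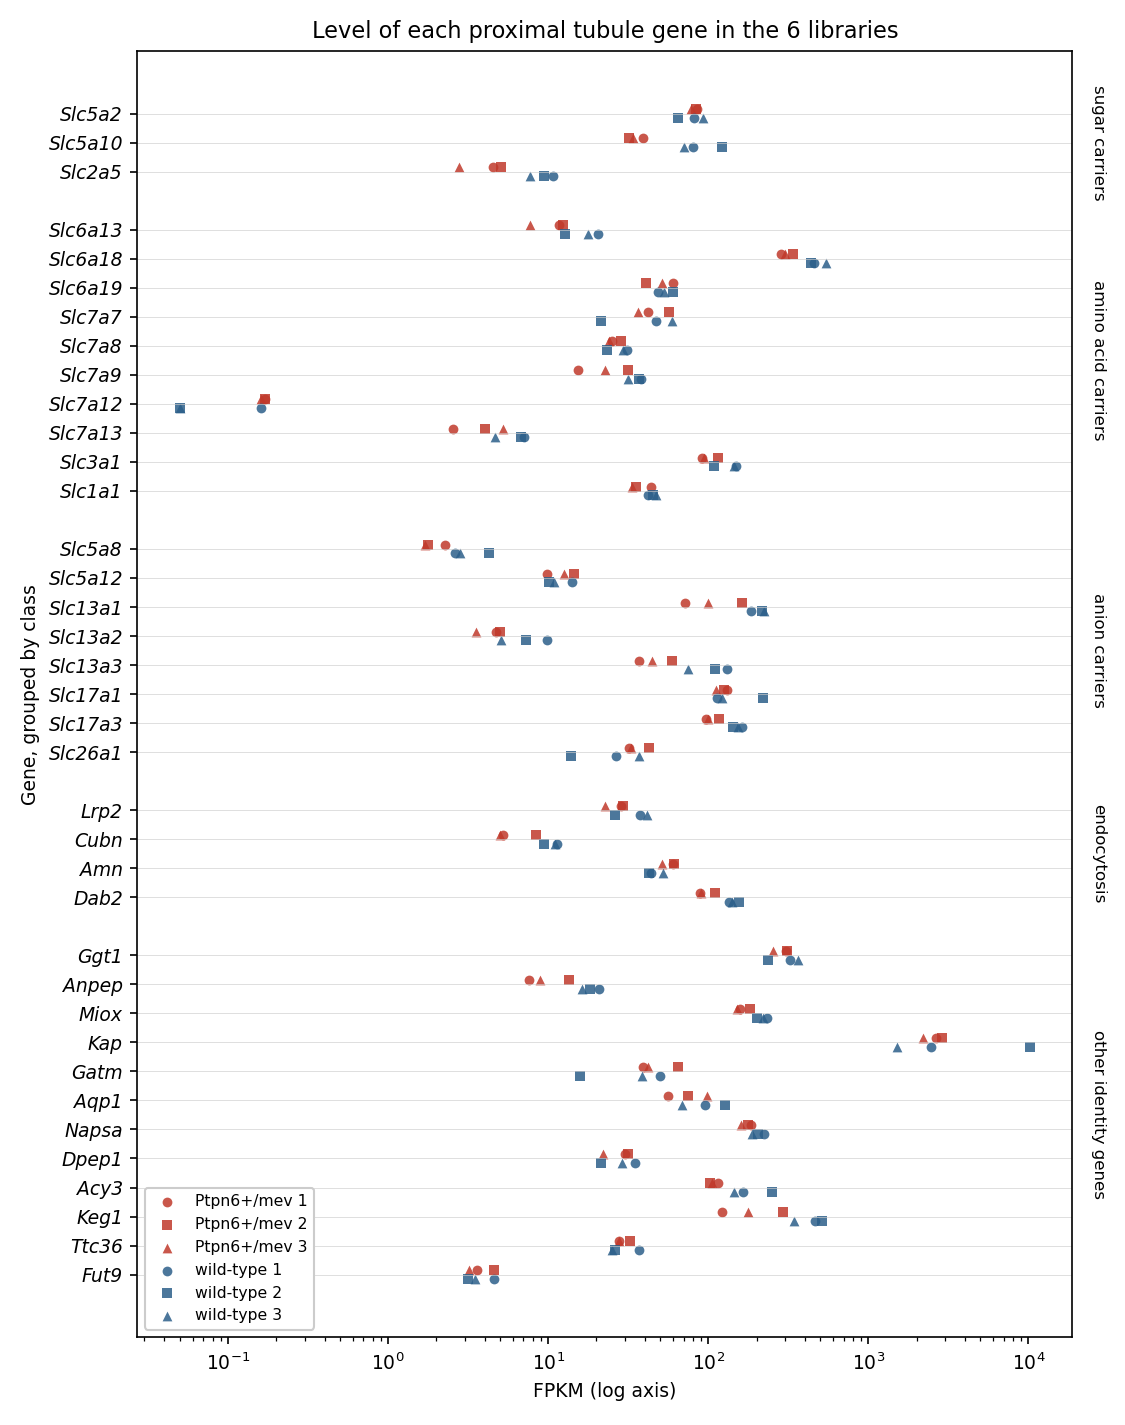
FPKM of each of the 37 genes on a log axis, grouped by class, with 1 point per library (red: *Ptpn6*+/mev, blue: wild-type; circle, square and triangle: replicates 1, 2 and 3). In 17 genes every red point lies left of every blue point, and in none do all red points lie right of the blue ones.

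No single gene of the 36 passed an adjusted p of 0.05 in edgeR's quasi-likelihood test, the test chosen for the comparison. Their log2 fold changes (*Ptpn6*+/mev minus wild-type) were negative in 31 of 36 genes, or 86.1%, against 50.5% of all genes tested. Their median was -0.48, against -0.0024 over all genes tested. The adjusted p was 0.0685 at the lowest, for *Slc5a10* and *Slc17a3*. This test called 0.069% of all genes as lower, and 0 of these 36. At an unadjusted p of 0.05 it found 21 of the 36 lower, or 58.3%, where 6.71% of all genes were lower. It found 0 of the 36 higher, where 5.53% of all genes were. These shares of all genes also stand against the counts at that p given below for classes and other lists.

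The levels themselves showed the same without a model. In 17 genes the FPKM of all 3 *Ptpn6*+/mev libraries lay below that of every wild-type library, which is 47.2% of the 36 tested, against 6.38% of all genes tested. In 0 of the 36 did all 3 lie above, against 14% of all genes tested. By the fitted values, 17 genes were more than 1.5-fold lower, 4 of them more than 2-fold, and none was more than 1.5-fold higher. The share of all genes past these folds was not counted. Without wild-type replicate 2 the log2 fold change of *Kap*, among these 17, turned from -0.99 to 0.35. Those of *Slc6a18*, *Slc5a8*, *Dab2* and *Acy3* went to -0.44, -0.54, -0.48 and -0.54, under 1.5-fold, while *Slc3a1* went past it, at -0.59.

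The number of genes called turned on the test. DESeq2 called 13 of the 36 lower, which is 36.1%, where it called 1.88% of all genes lower. edgeR's exact test called 12, or 33.3%, with 1.78% of all genes. limma-voom with sample quality weights, which gave wild-type replicate 2 a weight of 0.236 and the other libraries 0.919 to 2.28, called 15, or 41.7%, with 2.22% of all genes. The quasi-likelihood test called 11 without wild-type replicate 2, or 30.6%, with 1.01% of all genes. None of these 4 analyses called a gene of the 36 higher. They had 9 genes in common, namely *Slc5a10*, *Slc2a5*, *Slc6a18*, *Slc13a3*, *Slc17a3*, *Cubn*, *Dab2*, *Miox* and *Acy3*, and 15 genes were called by at least 1 of them. Other settings called fewer. The quasi-likelihood test called 0 with DESeq2 size factors, upper quartile normalization, at least 10 counts in every library, or the replicate number as a block. limma on log2(FPKM + 1) or log2(FPKM + 0.1) called 0 as well. These settings called 0 to 9 of all genes lower. With any other library left out, or without the low count filter, the quasi-likelihood test called 0 to 2 of these genes.

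**Figure D2:**
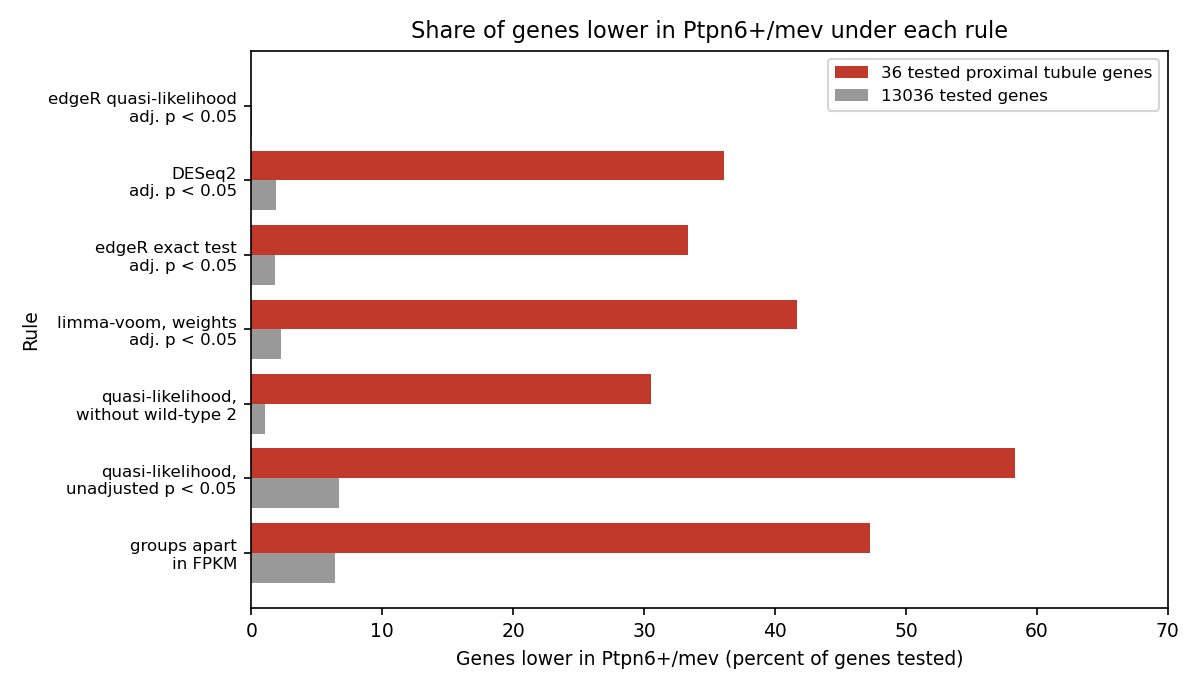
Percent of the 36 tested proximal tubule genes (red bars) and of all 13036 tested genes (grey bars) that were lower in *Ptpn6*+/mev kidneys under each rule, with bars starting at 0. Under the quasi-likelihood test with adjustment the shares are 0 and 0.069%, and under the other 6 rules the red bars lie between 30.6% and 58.3% and the grey bars between 1.01% and 6.71%.

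The 3 sugar carriers serve fructose, mannose and glucose, and their log2 fold changes of -1.46, -1.25 and -0.04 had a median of -1.25, with 2 of them lower at an unadjusted p of 0.05. *Slc5a10*, the sodium-coupled mannose and fructose carrier SGLT5 of the brush border, lies on chromosome 11 (chr11:61672781-61720826, GRCm38). It had 39.25, 31.7 and 34.1 FPKM in the *Ptpn6*+/mev mice and 80.75, 121 and 70.4 FPKM in the wild-type mice. The groups were well apart, with means of 35.0 ± 3.85 and 90.7 ± 26.7 FPKM (SD, n = 3 each). The log2 fold change of -1.46 (standard error 0.22, adjusted p = 0.0685 by edgeR's quasi-likelihood test) was the lowest of the 36 genes. Without wild-type replicate 2, the highest library, it was -1.14, with an adjusted p of 0.00214.

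*Slc2a5*, the fructose carrier GLUT5 of the late straight part (chr4:150119283-150144169), had 4.49, 5.06 and 2.76 FPKM in *Ptpn6*+/mev replicates and 10.8, 9.34 and 7.74 in wild-type replicates. It was lower in every *Ptpn6*+/mev library, with a log2 fold change of -1.25 (standard error 0.24, adjusted p = 0.0943, edgeR). *Slc5a2*, the glucose carrier SGLT2 of the early part (chr7:128265657-128272430), had 84.6, 83.2 and 77.7 FPKM against 80.9, 64.8 and 92.9. These groups overlapped, with a log2 fold change of -0.04 (standard error 0.11, adjusted p = 0.936, edgeR). The ratio of *Slc5a10* to *Slc5a2* within a library was 0.464, 0.381 and 0.438 in *Ptpn6*+/mev replicates and 0.999, 1.87 and 0.758 in wild-type replicates. The ratios of the groups did not overlap, with p = 0.1, the smallest that the exact two-sided permutation test allows with 3 against 3 libraries. Adjusted over the 5 gene pairs compared, which were chosen after their values were seen, it was 0.25.

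Of the 9 amino acid carriers tested, 8 had a negative log2 fold change, 6 of them at an unadjusted p of 0.05, and the median was -0.49. Separation of the groups was clearest in *Slc6a18* (chr13:73661752-73678023). It had 283, 337 and 299 FPKM in *Ptpn6*+/mev replicates and 455, 440.4 and 545 FPKM in wild-type replicates. Its mean in *Ptpn6*+/mev kidneys was 63.9% of the wild-type mean, with a log2 fold change of -0.64 (standard error 0.15, adjusted p = 0.133, edgeR).

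*Slc6a19* is the neighbour of *Slc6a18* on the same strand (chr13:73679745-73704865) and encodes B0AT1, the main neutral amino acid carrier of the early part. Its levels of 60.2, 40.9 and 51.5 FPKM in *Ptpn6*+/mev replicates overlapped with 48.25, 60.5 and 52.5 FPKM in wild-type replicates (log2 fold change -0.16, adjusted p = 0.773, edgeR). The ratio of *Slc6a18* to *Slc6a19* was 4.71, 8.25 and 5.82 against 9.43, 7.28 and 10.4, so the ratios overlapped as well (exact two-sided permutation p = 0.2, adjusted over 5 pairs 0.333). On the log2 scale the mean ratio differed by -0.55 between groups, with SDs of 0.41 and 0.26 within them.

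Cystine and dibasic amino acids are taken up by a pair of proteins, the carrier b0,+AT encoded by *Slc7a9* and its heavy chain rBAT encoded by *Slc3a1*. *Slc7a9* had 15.4, 31.3 and 22.55 FPKM in *Ptpn6*+/mev replicates against 37.7, 37.1 and 31.7 in wild-type replicates, with a narrow gap between the groups. *Slc3a1* had 91.8, 114 and 94.05 FPKM against 149, 109 and 145, and wild-type replicate 2 lay among the *Ptpn6*+/mev values. Their log2 fold changes were -0.70 (standard error 0.23, adjusted p = 0.279) and -0.49 (standard error 0.13, adjusted p = 0.177) by edgeR. Both partners were lower at an unadjusted p of 0.05, and their ratio did not separate the groups (exact two-sided permutation p = 0.5, adjusted over 5 pairs 0.5). Another partner of rBAT, the late-segment carrier AGT1 encoded by *Slc7a13*, had 2.54, 4.00 and 5.19 FPKM against 7.08, 6.74 and 4.67, which overlapped (log2 fold change -0.73, adjusted p = 0.356, edgeR).

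*Slc6a13*, the basolateral GABA and taurine carrier GAT2, had 11.6, 12.3 and 7.70 FPKM against 20.5, 12.8 and 17.7. The lowest wild-type value, again replicate 2, was just above the highest *Ptpn6*+/mev value. *Slc1a1*, the apical glutamate and aspartate carrier, had 43.8, 35.3 and 33.5 FPKM against 42.25, 44.8 and 47.0, with *Ptpn6*+/mev replicate 1 inside the wild-type range. The basolateral carriers *Slc7a7* (y+LAT1, dibasic amino acids) and *Slc7a8* (LAT2, neutral amino acids) had log2 fold changes of 0.03 and -0.18, with adjusted p of 0.982 and 0.611 (edgeR). For *Slc7a7* the direction turned to -0.26 without wild-type replicate 2, which at 21.3 FPKM was its lowest library.

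The anion carriers had a median log2 fold change of -0.72, and 5 of the 8 were at an unadjusted p of 0.05, all lower. The 3 carriers of the SLC13 family were all among them. *Slc13a3*, the high-affinity dicarboxylate carrier NaDC3 of the basolateral membrane (chr2:165405028-165473230), had 37.1, 59.55 and 44.4 FPKM in *Ptpn6*+/mev replicates and 132, 110.4 and 74.6 in wild-type replicates. Every *Ptpn6*+/mev value lay below every wild-type value, at a log2 fold change of -1.25 (standard error 0.24, adjusted p = 0.102, edgeR). *Slc13a1*, the apical sulfate carrier NaS1, had 71.3, 163 and 99.0 FPKM against 185, 217 and 223. Its group means of 111 ± 46.8 and 208 ± 20.0 FPKM (SD, n = 3 each) differed with a log2 fold change of -0.98 (standard error 0.27, adjusted p = 0.194, edgeR). *Slc13a2*, the apical citrate carrier NaDC1, was much less abundant, with 4.71, 4.99 and 3.53 FPKM against 9.77, 7.26 and 5.05, and its highest *Ptpn6*+/mev value nearly touched its lowest wild-type value.

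*Slc17a3* and *Slc17a1* are neighbours on chromosome 13 (chr13:23839434-23860716 and chr13:23867750-23895730) and encode the organic anion and urate carriers NPT4 and NPT1. *Slc17a3* had 96.4, 116 and 99.1 FPKM in *Ptpn6*+/mev replicates and 163, 143 and 154 in wild-type replicates. Within each group the libraries lay close together, so that the modest log2 fold change of -0.63 had a standard error of 0.10 and, with *Slc5a10*, the lowest adjusted p of the 36 genes (0.0685, edgeR). *Slc17a1* had 130.1, 126 and 112 FPKM against 113, 219 and 122. It did not separate the groups (log2 fold change -0.38, adjusted p = 0.634, edgeR), and its fold change became 0.05 without wild-type replicate 2. The ratio of the neighbours overlapped between groups (exact two-sided permutation p = 0.4, adjusted over 5 pairs 0.5).

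The carriers of monocarboxylates such as lactate come in an early and a late form. *Slc5a8* (SMCT1, high affinity, late part) had 2.27, 1.77 and 1.69 FPKM against 2.63, 4.27 and 2.80, with the groups apart, while *Slc5a12* (SMCT2, low affinity, early part) had 9.87, 14.5 and 12.5 against 14.05, 10.1 and 10.8. Their log2 fold changes were -0.84 (adjusted p = 0.221) and 0.01 (adjusted p = 0.991) by edgeR. *Slc26a1*, the basolateral sulfate exchanger SAT1, was the gene with the highest log2 fold change of the 36, at 0.46 (standard error 0.28, adjusted p = 0.583, edgeR). Its levels of 31.9, 42.9 and 33.0 FPKM overlapped with 26.4, 13.9 and 36.99, and without wild-type replicate 2 the value was 0.19. The apical and the basolateral sulfate carrier thus had values of opposite sign, and of the 2 neither passed the test.

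Of the 4 endocytosis genes, 3 were lower at an unadjusted p of 0.05, and the median log2 fold change was -0.54. *Cubn* (chr2:13276338-13491813) had 5.20, 8.33 and 5.01 FPKM in *Ptpn6*+/mev replicates and 11.3, 9.46 and 11.0 in wild-type replicates. The groups were apart, with a log2 fold change of -0.84 (standard error 0.19, adjusted p = 0.131, edgeR). *Amn*, the gene for amnionless, which anchors cubilin in the membrane, had 59.95, 61.2 and 51.1 FPKM against 43.7, 42.3 and 52.3 (log2 fold change 0.25, standard error 0.11, adjusted p = 0.417, edgeR). The ratio of *Cubn* to *Amn* was 0.0867, 0.136 and 0.0980 in *Ptpn6*+/mev replicates and 0.258, 0.224 and 0.211 in wild-type replicates. It was lower in all 3 *Ptpn6*+/mev libraries, with an exact two-sided permutation p of 0.1 (adjusted over 5 pairs 0.25). That test cannot go lower with 3 against 3 libraries, and this pair too was chosen after its values were seen, so no conclusion is drawn from it.

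*Dab2*, the adaptor that links megalin to clathrin (chr15:6299788-6440712), had 88.8, 109.6 and 89.5 FPKM in *Ptpn6*+/mev replicates and 134, 156 and 140.1 in wild-type replicates. Its groups were apart by more than their spread, with a log2 fold change of -0.64 (standard error 0.14, adjusted p = 0.114, edgeR). *Dab2* is also expressed outside the proximal tubule. Megalin itself, *Lrp2*, had 28.55, 29.2 and 22.65 FPKM against 37.5, 26.0 and 41.3. Wild-type replicate 2 lay within the *Ptpn6*+/mev range, and the log2 fold change of -0.44 (adjusted p = 0.316, edgeR) became -0.57 (adjusted p = 0.0392) without it.

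The 12 other identity genes had a median log2 fold change of -0.37 (-0.23 without wild-type replicate 2), and 5 were lower at an unadjusted p of 0.05. Among their enzymes, *Miox*, which opens the ring of myo-inositol (chr15:89334398-89337015), had 158, 183 and 151 FPKM in *Ptpn6*+/mev replicates and 233, 200.3 and 219.6 in wild-type replicates (log2 fold change -0.46, standard error 0.10, adjusted p = 0.114, edgeR). *Acy3*, the aminoacylase that acts on mercapturic acids (chr19:3986570-3990007), had 114, 103 and 106 FPKM against 164, 251 and 144 (log2 fold change -0.87, standard error 0.22, adjusted p = 0.162). Without wild-type replicate 2, its highest library, *Acy3* had a log2 fold change of -0.54 and an adjusted p of 0.0294. *Keg1*, a kidney-expressed gene of the glycine N-acyltransferase family, had 121, 291 and 178 FPKM against 464, 516 and 342. Its log2 fold change of -1.24 (standard error 0.31, adjusted p = 0.165, edgeR) was large, and *Ptpn6*+/mev replicate 2 lay well above replicates 1 and 3.

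Among the proteases, *Anpep*, the brush border aminopeptidase N, had 7.53, 13.55 and 8.83 FPKM against 20.7, 18.1 and 16.3, with the groups apart (log2 fold change -0.92, standard error 0.20, adjusted p = 0.114, edgeR). The lysosomal aspartic protease napsin A, *Napsa*, had 185.53, 176.5 and 159 FPKM against 222, 205 and 186.46, so its groups were apart by less than 1 FPKM. The brush border enzymes *Ggt1*, which splits glutathione, and *Dpep1*, a dipeptidase, had log2 fold changes of -0.12 and -0.13, with adjusted p of 0.790 and 0.820 (edgeR). Identity genes thus included brush border enzymes with a clear separation and others without one.

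*Aqp1*, the water channel of the proximal tubule and thin limb, had 56.1, 74.2 and 97.6 FPKM against 95.3, 128 and 68.6. *Gatm*, which catalyses the first step of creatine synthesis, had 39.3, 64.4 and 42.1 FPKM against 50.1, 15.7 and 38.6. In both the groups overlapped, and the log2 fold changes of -0.44 and 0.43 had adjusted p of 0.590 and 0.707 (edgeR). For *Ttc36* and for *Fut9*, a fucosyltransferase that makes the Lewis x antigen, both log2 fold changes were -0.07 (adjusted p = 0.923 and 0.908, edgeR). *Kap* depended on a single library, because its log2 fold change of -0.99 (standard error 0.64, adjusted p = 0.604, edgeR) became 0.35 without wild-type replicate 2.

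Leaving out wild-type replicate 2 moved further log2 fold changes by more than 1.5 times. *Slc5a8* went to -0.54, *Aqp1* to -0.14 and *Gatm* to 0.10. *Slc5a2*, *Ggt1*, *Dpep1* and *Ttc36* went to -0.12, -0.22, -0.24 and -0.10, and *Slc6a19*, *Slc5a12* and *Fut9* to -0.014, -0.043 and 0.025. None of these 10 genes passed the adjusted test with or without that library.

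Expressed as a percentage of the wild-type mean of each gene, the median gene stood at 69.4%, 78.9% and 69.8% in the *Ptpn6*+/mev mice and at 106%, 95.9% and 97.6% in the wild-type mice. Sugar carriers were lowest in *Ptpn6*+/mev kidneys, at 48.4%, 54.5% and 37.5%, and the other identity genes highest, at 81.7%, 85.1% and 77.6%. Amino acid carriers (68.6%, 79.1% and 75.1%), anion carriers (67.1%, 76.9% and 58.5%) and endocytosis genes (71.8%, 81.1% and 63.6%) lay between them. In all 5 classes the 3 *Ptpn6*+/mev medians were below the 3 wild-type medians. *Ptpn6*+/mev replicate 2 had the highest median of its group in every class. Since whole kidneys were sequenced, fewer proximal tubule cells and less RNA of these genes per cell cannot be told apart.

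**Figure D3:**
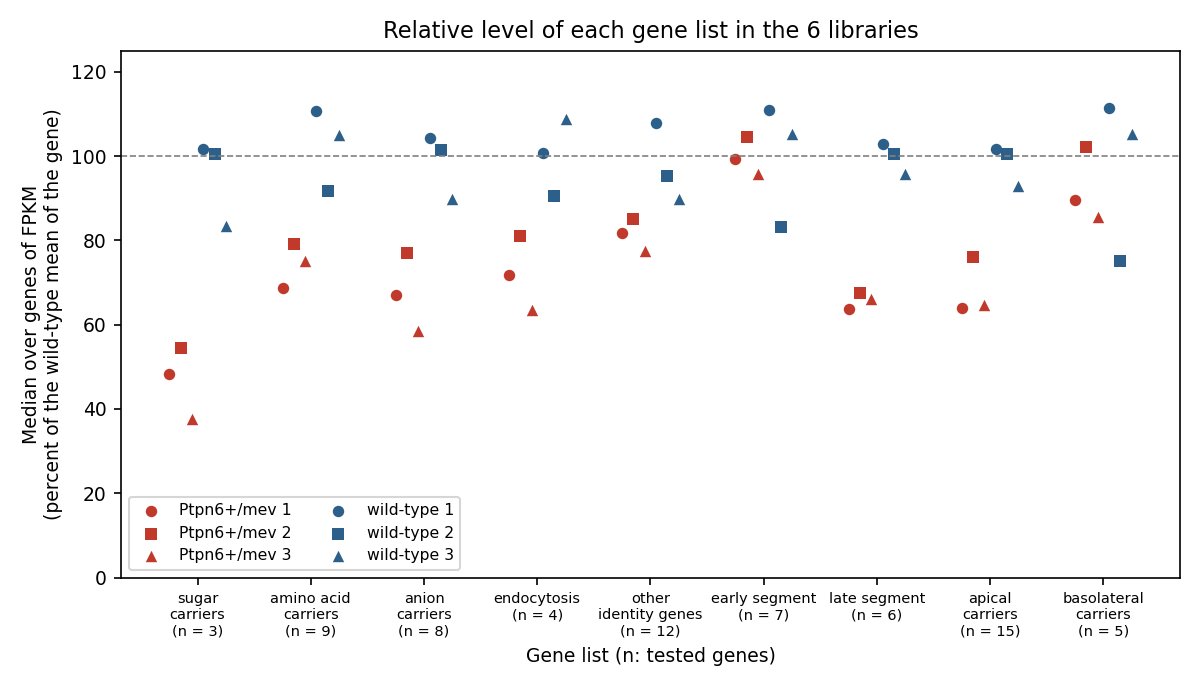
Median over the tested genes of each list of the FPKM relative to the gene's wild-type mean (percent), with 1 point per library (red: *Ptpn6*+/mev, blue: wild-type) and a dashed line at 100%. In the 5 classes, the late segment list and the apical carriers all red points lie below all blue points, while in the early segment list and the basolateral carriers they overlap.

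Together the 37 genes made up 0.897%, 1.00% and 0.799% of the summed FPKM in *Ptpn6*+/mev replicates and 1.06%, 2.42% and 0.892% in wild-type replicates. *Kap* was the largest single part of these sums, from 1520 of 4935 FPKM in wild-type replicate 3 to 10201 of 13729 FPKM in wild-type replicate 2. Without *Kap*, an exclusion made after its values were seen, the shares were 0.419%, 0.495% and 0.410% against 0.624%, 0.622% and 0.617%, and the groups no longer overlapped.

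Among the genes listed by segment, the median late gene was lower in *Ptpn6*+/mev kidneys, and the median early gene stood close to its wild-type level. The further proximal tubule carriers described below were not assigned to a segment, so the contrast covers these 2 lists and not the whole of either part. The late list held *Slc2a5*, *Slc5a8*, *Slc6a18*, *Slc7a12*, *Slc7a13*, *Slc3a1* and *Slc1a1*, and all 6 of those tested had a negative log2 fold change at an unadjusted p of 0.05, with a median of -0.68. The early list held *Slc5a2*, *Slc5a12*, *Slc6a19*, *Slc7a7*, *Slc7a8*, *Slc7a9* and *Gatm*. Of these, 4 had a negative log2 fold change, 1 of them (*Slc7a9*) at an unadjusted p of 0.05, and the median was -0.04. Without wild-type replicate 2 the medians were -0.56 for the late and -0.12 for the early list. Single early genes lay further off, with *Slc7a9* at 65.0% and *Gatm* at 139.6% of the wild-type mean. As a percentage of the wild-type mean, the median late gene stood at 63.7%, 67.6% and 66.2% in *Ptpn6*+/mev replicates, and at 103%, 100.4% and 95.9% in wild-type replicates. The median early gene stood at 99.3%, 105% and 95.7% against 111%, 83.2% and 105%, so the early medians overlapped between groups.

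The difference between the lists can be read within each library. On log2 CPM (counts scaled to library size), each gene centred on its wild-type mean, the early median minus the late median was 0.58, 0.62 and 0.46 in the *Ptpn6*+/mev mice, and 0.13, -0.34 and 0.19 in the wild-type mice. The *Ptpn6*+/mev libraries were all above the wild-type libraries. From the fitted values the difference was 0.65, and it lay between 0.44 and 0.74 when each library was left out in turn. The lists are small, and no test of them was made.

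**Figure D4:**
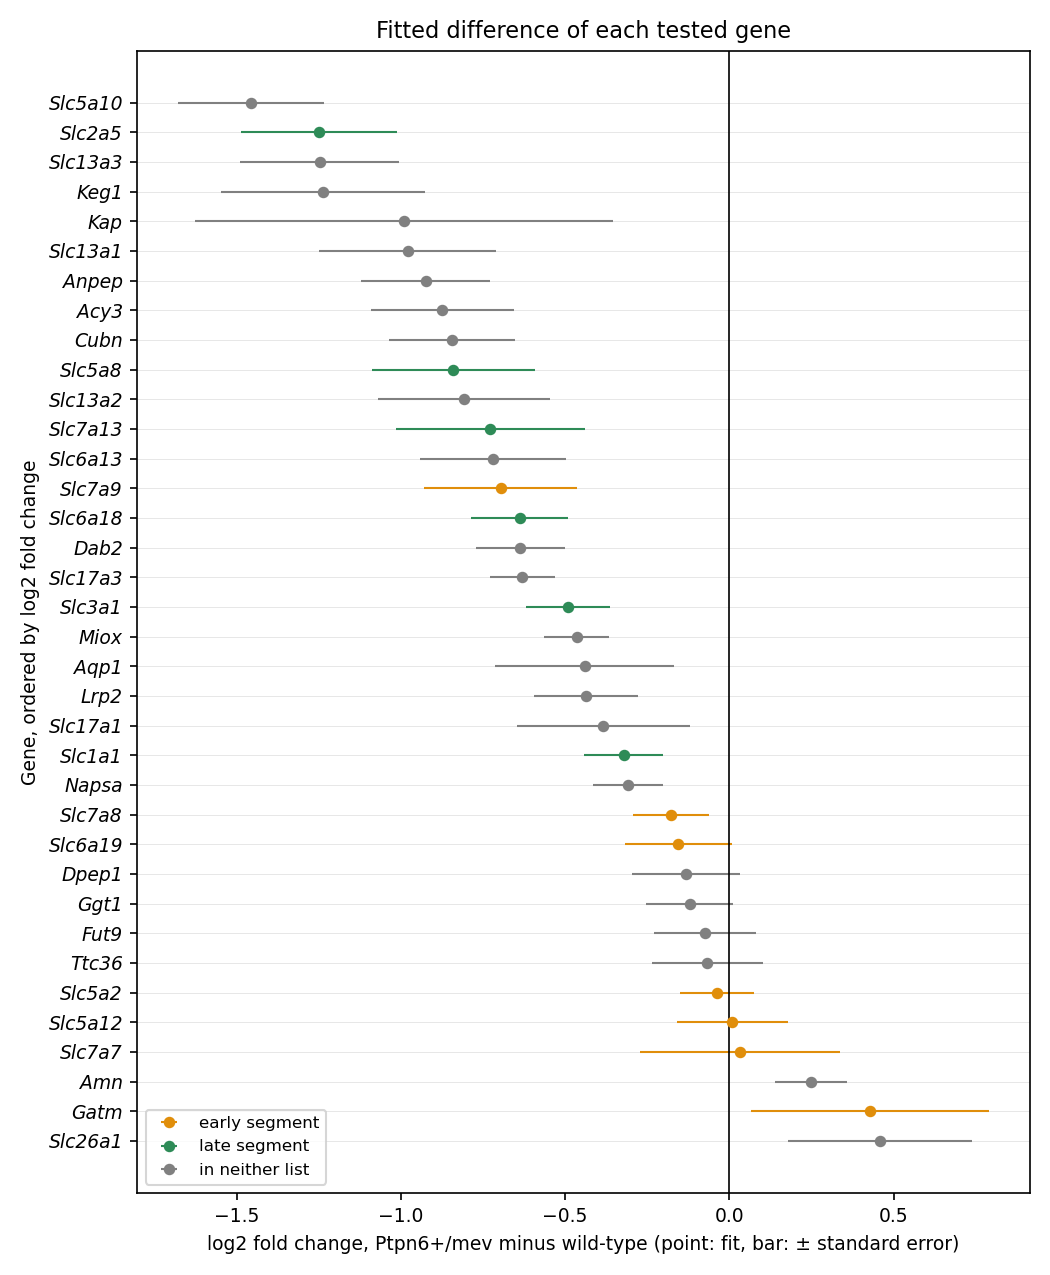
Fitted log2 fold change (*Ptpn6*+/mev minus wild-type) of each of the 36 tested genes with its standard error as bar, ordered by value and coloured by segment list (orange: early, green: late, grey: in neither). The 6 late genes lie between -1.25 and -0.32, and the 7 early genes between -0.70 and 0.43.

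Apical and basolateral carriers were set side by side as well. Of 15 apical carriers, 14 had a negative log2 fold change, 11 at an unadjusted p of 0.05, and their median was -0.64. Of 5 basolateral carriers, 3 were negative, *Slc6a13* and *Slc13a3* at an unadjusted p of 0.05, and their median was -0.18. With so few basolateral carriers the difference of -0.46 rests on single genes, and it ranged from -0.53 to -0.33 when each library was left out.

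The mRNAs of partner proteins that some of these carriers need were compared too. *Slc3a2*, the heavy chain 4F2hc that serves *Slc7a7* and *Slc7a8*, had 119.5, 136 and 127 FPKM in *Ptpn6*+/mev replicates and 144, 108 and 156 in wild-type replicates, which overlapped (log2 fold change -0.16, adjusted p = 0.661, edgeR, and -0.27 without wild-type replicate 2). *Tmem27*, the gene for collectrin, which brings B0AT1 to the apical membrane of the kidney, had 123, 162 and 105 FPKM against 55.3, 345 and 77.1. Wild-type replicate 2 was far above the other wild-type libraries, and without it the log2 fold change turned from -0.41 (adjusted p = 0.866, edgeR) to 0.94 (adjusted p = 0.0417). Of the 9 partner and scaffold genes tested, 2 were lower and 1 was higher at an unadjusted p of 0.05. Over all genes tested, 6.71% were lower and 5.53% higher. Of the 9, 0 passed the adjusted test (0 also with DESeq2), and limma-voom called 1 lower. The median log2 fold change was -0.17. The most abundant of them were the scaffold genes *Pdzk1* and *Slc9a3r1*, with log2 fold changes of -0.36 and -0.17 (adjusted p = 0.341 and 0.643, edgeR), and *Slc9a3r1* went to -0.27 without wild-type replicate 2.

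Other genes of the same cells, from lists that do not share a gene with the 37, gave smaller or similar medians. Of 23 further proximal tubule carriers, 9 were lower and 1 was higher at an unadjusted p of 0.05, with a median of -0.40. DESeq2, the exact test and limma-voom each called 9 of the 23 lower, and 6 were called by the quasi-likelihood test once wild-type replicate 2 was left out. These 6, named after their values were seen, were *Slc22a8*, *Slc22a6*, *Slc22a12*, *Slc23a1*, *Slc9a3* and *Slc5a1*, with adjusted p between 0.0133 and 0.0460. One of them, *Slc22a8*, the basolateral organic anion carrier OAT3, passed the adjusted test. It had 14.5, 11.9 and 13.2 FPKM in *Ptpn6*+/mev replicates and 21.3, 24.9 and 24.7 in wild-type replicates, and so fell with a log2 fold change of -0.91 (standard error 0.12, adjusted p = 0.0443, edgeR). Of the 2 most abundant, *Slc22a12*, the urate carrier URAT1, had a log2 fold change of -0.74 (adjusted p = 0.0873, edgeR) and *Slc27a2*, a fatty acid carrier and acyl-CoA ligase, one of -0.40 (adjusted p = 0.447), which was -0.17 without wild-type replicate 2. Of 10 further brush border enzymes, 4 were lower and 0 higher at an unadjusted p of 0.05, with a median of -0.18, and DESeq2 called 2 lower. With wild-type replicate 2 left out the quasi-likelihood test called 1, *Alpl* (alkaline phosphatase). It had 64.9, 77.1 and 62.2 FPKM in the *Ptpn6*+/mev mice and 146, 124.86 and 94.4 in the wild-type mice, with a log2 fold change of -0.91 (adjusted p = 0.0992, edgeR, and 0.0409 without that library). The most abundant among these enzymes, *Lap3* and *Mep1a*, had log2 fold changes of -0.19 and -0.39 (adjusted p = 0.402 and 0.182, edgeR).

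Proximal tubule transcription factors were compared as well. Of 8 measured, 3 were lower and 0 higher at an unadjusted p of 0.05, 0 passed the adjusted test (2 were lower with DESeq2), and the median was -0.16. Without wild-type replicate 2 the test called 1 lower, the fatty acid receptor gene *Ppara*. It had 15.7, 12.3 and 16.1 FPKM in the *Ptpn6*+/mev mice and 22.2, 28.9 and 21.8 in the wild-type mice (log2 fold change -0.81, adjusted p = 0.104, edgeR, and 0.0458 without that library). *Hnf4a*, a nuclear receptor that drives many genes of this cell type, had 164, 142 and 126 FPKM in *Ptpn6*+/mev replicates and 203, 158 and 167 in wild-type replicates, with overlapping groups (log2 fold change -0.36, adjusted p = 0.308, edgeR). *Esrra*, the second most abundant, had a log2 fold change of -0.05 (adjusted p = 0.887), or -0.023 without wild-type replicate 2.

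The bases before the transcription starts of these genes were searched for the letters of 2 factors known for this cell type and for the TATA box. RefSeq promoters (GRCm38.p6) were found for 28 of the 37 genes by symbol. Within 250 bases before the start, on either strand, GTTAAT, a half-site of the HNF1 factors, was found in 5 of 28 genes (17.9%), against 7.49% of 27025 genes. CAAAGT, a half-site of HNF4, was found in 9 of 28 (32.1%), against 14.1% of all genes, and TATAAA in 7 of 28 (25%), against 14.3%. A longer HNF4 sequence, CAAAGTCCA, which contains the half-site, occurred in *Slc3a1* alone among the 28 and in 0.451% of all genes. Such short letters occur often by composition alone, and a match is not a bound site. The 28 genes were chosen as proximal tubule genes, and shares were not compared between their lower and unchanged members. A link of these letters to the fold changes was therefore not tested.

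Of the 9 genes called by all 4 analyses above, 8 had a RefSeq promoter, all but *Slc6a18*. Among these, 3 had an HNF1 half-site in this window (*Slc5a10*, *Dab2* and *Miox*) and 2 an HNF4 half-site (*Dab2* and *Acy3*). The windows are shown so that these letters can be seen in place, 5′ to 3′ in the direction of the gene and ended where the first annotated exon begins, with matches to the HNF1 and HNF4 half-sites and the TATA box, or to their reverse complements, in capitals. They are *Slc5a10* at chr11:61720827-61721049 on the minus strand, *Miox* at chr15:89334223-89334397, *Dab2* (the upstream of its 2 starts) at chr15:6299539-6299787 and *Acy3* at chr19:3986320-3986569, these 3 on the plus strand. The HNF1 match of *Dab2*, before its other start, lies in an exon of the longer transcripts and is not shown.
Slc5a10: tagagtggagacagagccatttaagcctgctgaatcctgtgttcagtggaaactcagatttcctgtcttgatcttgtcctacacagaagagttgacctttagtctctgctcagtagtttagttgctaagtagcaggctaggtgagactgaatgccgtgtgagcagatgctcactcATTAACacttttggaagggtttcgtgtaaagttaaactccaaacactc
Miox: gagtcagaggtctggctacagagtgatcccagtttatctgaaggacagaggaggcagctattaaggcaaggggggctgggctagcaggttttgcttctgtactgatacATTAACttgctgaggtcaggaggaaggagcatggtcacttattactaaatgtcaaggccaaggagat
Dab2: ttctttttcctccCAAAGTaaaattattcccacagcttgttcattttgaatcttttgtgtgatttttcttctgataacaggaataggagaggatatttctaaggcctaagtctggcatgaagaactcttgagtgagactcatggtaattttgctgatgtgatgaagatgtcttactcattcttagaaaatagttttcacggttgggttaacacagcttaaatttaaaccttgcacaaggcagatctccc
Acy3: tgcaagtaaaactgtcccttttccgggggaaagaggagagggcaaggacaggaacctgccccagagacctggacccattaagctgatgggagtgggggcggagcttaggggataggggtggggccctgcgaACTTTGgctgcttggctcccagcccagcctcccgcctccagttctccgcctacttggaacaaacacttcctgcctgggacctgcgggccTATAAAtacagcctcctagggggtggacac
The HNF1 match begins 75 bases before the RefSeq start in *Slc5a10* and 142 bases before it in *Miox*. The HNF4 match begins 237 bases before it in *Dab2* and 119 in *Acy3*. Of the 250 bases before that start, the windows shown hold 223 in *Slc5a10*, 175 in *Miox* and 249 in *Dab2*. In *Acy3* a TATA box match begins 30 bases before the start. The genes with these matches did not have a common level or size of difference, since *Slc7a7*, with both half-sites, had a log2 fold change of 0.03.

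Markers of other cells and of injury were measured beside these genes. Of 12 tubular injury genes, 4 were higher and 2 lower at an unadjusted p of 0.05, where 5.53% and 6.71% of all genes tested were, and the median was 0.21. The 4 higher ones were *Havcr1*, *Vcam1*, *Krt8* and *Krt18*, and the 2 lower ones *Plin2* and *Spp1*, named after their values were seen. *Havcr1*, the injury marker KIM-1 of the proximal tubule, had 1513, 1565 and 1436 FPKM in the *Ptpn6*+/mev mice and 1087, 1259 and 1262 in the wild-type mice (log2 fold change 0.27, adjusted p = 0.325, edgeR). *Vcam1*, *Krt18* and *Krt8* had log2 fold changes of 1.05, 0.55 and 0.28 (adjusted p = 0.188, 0.196 and 0.273, edgeR). *Spp1* (osteopontin) and *Clu* (clusterin), the most abundant, had log2 fold changes of -0.38 and 0.08 (adjusted p = 0.331 and 0.879, edgeR), which were -0.21 and -0.031 without wild-type replicate 2. *Plin2*, which coats lipid droplets, had 492, 495 and 602 FPKM against 866, 1506 and 738. Its log2 fold change was -1.05 with an adjusted p of 0.177 (edgeR), and -0.61 with one of 0.0303 without wild-type replicate 2.

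The thick limb and distal nephron list had a median of -0.13, with sums of 1928 to 2793 FPKM in *Ptpn6*+/mev and 2413 to 2555 in wild-type libraries. Median log2 fold changes were -0.20 for collecting duct, 0.10 for podocyte, 0.15 for endothelium, 0.11 for macrophage, 0.02 for neutrophil, -0.08 for fibroblast, 0.19 for red blood cell and -0.78 for liver markers. Several of these medians turned sign without wild-type replicate 2. They were then 0.22 for thick limb and distal nephron, 0.19 for collecting duct, -0.17 for endothelium, -0.12 for macrophage and -0.13 for neutrophil markers. The fibroblast median went to -0.53, the podocyte median to 0.041 and the red blood cell median to 0.00017, while the injury and liver medians were 0.31 and -0.61. Apart from the podocyte list, the 2 most abundant genes of these lists were *Umod* and *Slc12a3* (thick limb and distal nephron), *Aqp2* and *Fxyd4* (collecting duct), *Plvap* and *Egfl7* (endothelium), *Lyz2* and *Cd14* (macrophage), *S100a9* and *S100a8* (neutrophil), *Acta2* and *Col3a1* (fibroblast), *Hbb-bs* and *Hba-a2* (red blood cell), and *Ttr* and *Serpina1a* (liver). Their log2 fold changes lay between -1.09 (*Serpina1a*) and 0.49 (*Acta2*), and without wild-type replicate 2 between -1.08 (*Serpina1a*) and 0.56 (*Ttr*). Leaving that library out turned the sign of *Umod* (-0.13 to 0.034), *Aqp2* (-0.54 to 0.30), *Fxyd4* (-0.21 to 0.12) and *Plvap* (0.11 to -0.25). The sign also turned for *Egfl7* (0.086 to -0.091), *S100a9* (0.022 to -0.13) and *Hbb-bs* (0.088 to -0.16). *Lyz2* went from 0.42 to 0.15, *Cd14* from -0.37 to -0.19, *Acta2* from 0.49 to 0.16 and *Col3a1* from -0.11 to -0.57. *Hba-a2* went from 0.23 to 0.00017 and *Ttr* from 0.31 to 0.56. No gene of the injury and other cell type lists passed the adjusted test with all libraries, while DESeq2 called 2 injury genes higher and 1 lower, and 2 liver genes lower. With wild-type replicate 2 left out, edgeR's quasi-likelihood test called *Krt20*, *Krt18* and *Kcnj1* higher and *Plin2*, *Dcn*, *Pdgfra* and *Alb* lower, with adjusted p between 0.0033 and 0.0496. Leaving it out moved *Krt20* from 0.16 to 0.65, *Kcnj1* from -0.13 to 0.94, *Dcn* from -0.36 to -0.78 and *Pdgfra* from -0.09 to -0.54 in log2 fold change. Of all these markers only *Ly6g*, in wild-type replicate 2, and *Apoa1*, in all 3 *Ptpn6*+/mev libraries, were listed at 0 in a library. Their part in the differences of the proximal tubule genes was not tested.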

How the data were processed

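mRNA was sequenced from 6 kidneys, 3 of each genotype, with 1 library per mouse. Per the labels and the study's methods, reads were aligned to GRCm38.p5 with TopHat2, and the processing notes also name Bowtie2, Cufflinks and RSEM. The authors deposited an expected count for each gene and library, fractional in 1744 of 21367 genes, which was rounded before testing. They also deposited an FPKM value, scaled to transcript length and to the total of the library, which was used for levels per mouse. Among the 37 genes, *Slc5a2*, *Slc5a10*, *Slc7a7*, *Slc3a1*, *Slc1a1* and *Slc26a1* had fractional counts, as arise where reads are shared between similar sequences.

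Counts were normalized with TMM and compared with the quasi-likelihood test of edgeR 4.0.16 (R 4.3.3) after filterByExpr, with Benjamini-Hochberg adjustment over the 13036 genes tested and a threshold of 0.05. Standard errors are the log2 fold change divided by the square root of F. Libraries of 1 group differed by more than sampling noise (chi-square per degree of freedom 6.27 to 43.3), so each was counted as 1 mouse. Log2 CPM, the counts scaled to library size, used a prior count of 2. Alternatives were DESeq2 1.42.0, edgeR's exact test, limma 3.58.1 with voom weights or on log2(FPKM + 1) and log2(FPKM + 0.1), other scalings and filters, a block for the replicate number, and leaving out each library. The procedures were tested on simulated data. Positions are those of GENCODE M21, and *Cltrn* is listed as *Tmem27*.

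The genes and lists were chosen with earlier results of these data known. Named are all 37 genes and, of the other lists, the genes that the quasi-likelihood test called from all 6 libraries, the 2 most abundant of each list and partner proteins, except that those of the podocyte list are not reported here. *Ddx3y* and the other Y-linked genes are named for the check they give, and *Ly6g*, *Apoa1*, *Alpl*, *Ppara* and the other genes called only without wild-type replicate 2 after their values were seen.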

Additional observations from a re-analysis of the deposited data

How the results depend on the processing

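All 16 alternatives kept the median of the 36 genes negative, and in 28 of the genes the sign of the log2 fold change did not turn. The number of these genes called was 0 in the quasi-likelihood test, 13 with DESeq2, 12 with the exact test, 15 with limma-voom and quality weights, 2 without a filter on low counts (*Slc5a10* and *Slc17a3*) and 0 to 11 when each library was left out. It was also 0 with the other scalings, with at least 10 counts in every library, and with limma on either FPKM scale. Over all genes the calls numbered 18, 387 with DESeq2, 390 with the exact test, 492 with limma-voom, 52 without the filter and 1 to 231 with a library left out, the highest without wild-type replicate 2. Leaving out each library gave a median of -0.60 to -0.46 over the 36 genes, -0.60 to -0.42 for amino acid carriers and -0.43 to -0.23 for other identity genes. Without the filter, which lets *Slc7a12* in, the median of amino acid carriers was -0.41. Same-numbered libraries correlated at -0.144, -0.184 and -0.130, so the numbers do not pair them, and with the replicate number as a block 1 gene was called over all genes and 0 of the 36, whose median was -0.45.

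The log2 fold changes that changed sign did so for 8 genes, and the cause was not tested. On log2(FPKM + 1) they were 0.055 for *Slc5a2*, 0.017 for *Ttc36* and 0.016 for *Fut9*, and on log2(FPKM + 0.1) they were 0.056, 0.018 and 0.020. With limma-voom they were -0.21 for *Slc7a7*, -0.089 for *Slc5a12* and 0.033 for *Kap*. Leaving out each library gave -0.12 to 0.057 for *Slc5a2*, -0.26 to 0.27 for *Slc7a7*, -0.13 to 0.15 for *Slc5a12*, -0.56 to 0.046 for *Slc17a1*, -1.42 to 0.35 for *Kap*, -0.24 to 0.0012 for *Dpep1*, -0.19 to 0.12 for *Ttc36* and -0.18 to 0.025 for *Fut9*. Without wild-type replicate 2 alone, the sign turned for *Slc7a7*, *Slc5a12*, *Slc17a1*, *Kap* and *Fut9*. Depth limits *Slc7a12*, with at most 3 counts. With 3 mice a group, the exact permutation test cannot go below p = 0.1.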
